A study of Mus musculus with 10 samples.

Results

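The insulin-like growth factor (IGF) genes described here are Igf1, its receptor gene Igf1r, the insulin receptor substrate genes Irs1 and Irs2 and the IGF binding protein genes Igfbp2 to Igfbp7. They were picked by symbol, and all 10 were found among the 55401 genes of the count table, each under 1 identifier. RNA was sequenced from 10 libraries of C57BL/6 mouse cells labelled as Schwann cells, which had been sorted by an anti-NGFR antibody. All mice were tamoxifen-inducible KPC mice, which model pancreatic cancer, and all were sampled at 4 months. For 5 pancreas libraries the donors received a solution without tamoxifen, and for 5 tumour libraries they received tamoxifen from 6 weeks of age (20 mg/kg, into the peritoneum, on 5 days). No source used here names the promoter behind the inducible recombinase or says whether each library is 1 animal, so p-values only reflect how these samples vary, which may be technical variation. Pancreas was digested with hyaluronidase and collagenase and tumour with a dissociation kit, so digestion and group cannot be told apart. The sample descriptions call the pancreas samples CTL and the tumour samples COCUL, a code that the labels leave unexplained. If it stands for co-culture, which the protocols do not mention, the tumour values would be those of cultured cells, and culture and tissue could not be told apart.

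IGF1 is a secreted growth factor that binds the receptor tyrosine kinase IGF1R. The active receptor phosphorylates the adaptor proteins IRS1 and IRS2, which recruit phosphatidylinositol 3-kinase (PI3 kinase) and so switch on AKT and mTOR and keep FOXO transcription factors out of the nucleus. IGF binding proteins hold IGFs in the extracellular fluid. They can block access to the receptor or carry the ligand, and proteases free it again. In peripheral nerve, IGFs are known to promote the survival and differentiation of Schwann cells, and in pancreatic tumours fibroblasts and macrophages are known sources of IGF1.

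Levels are given as CPM (counts scaled to library size) scaled with TMM factors, which correct for differences in library composition, with mean ± SD over the 5 libraries of a group. Each log2 fold change is tumour minus pancreas, with the SE from the edgeR quasi-likelihood test, and a gene was called at a Benjamini-Hochberg adjusted p below 0.05 over all 17548 tested genes. Library totals ran from 58242278 to 89816499 estimated counts. Pancreas replicates 3 and 4 stood apart from pancreas replicates 1, 2 and 5 on the second principal component, which held 6.28% of the variance, so results are also given without them. Defining Schwann genes were at or near 0. Sox10 had at most 9 counts in a pancreas library and 0 in all tumour libraries, S100b at most 20 and Ngfr at most 22 in any library, and Foxd3 was listed at 0 throughout. Of the 11 Schwann lineage markers 5 could be tested, and of these 2 were higher and 1 lower in tumour. The sum over all 11 was 103 to 110.4 CPM in pancreas and 201 to 219 in tumour, of which Ncam1 made up 97.0%. The libraries are therefore named by tissue below.

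Of the 9 IGF genes that could be tested, 5 were lower in tumour, 1 was higher and 3 were not called. Igf1 and the binding protein genes Igfbp3, Igfbp4, Igfbp6 and Igfbp7 fell, and Irs2 rose. Igf1r, Irs1 and Igfbp5 did not pass, and Igfbp2 had too few counts for a test. Changes were common in this comparison. Of all tested genes 65.8% were called, 33.4% lower and 32.4% higher in tumour, and for 54.6% the groups did not overlap. The groups did not overlap for 6 of the 9 tested IGF genes. Their median log2 fold change was -0.57, against 0.00224 over all tested genes. A fall of at least 2-fold was called for 10.3% of tested genes and for 4 of these 9, namely Igf1, Igfbp3, Igfbp6 and Igfbp7. The tested genes are those with enough counts in at least 5 libraries, of either group. A gene short of that count in every library of 1 group therefore had to differ to be among them.

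**Figure D1:**
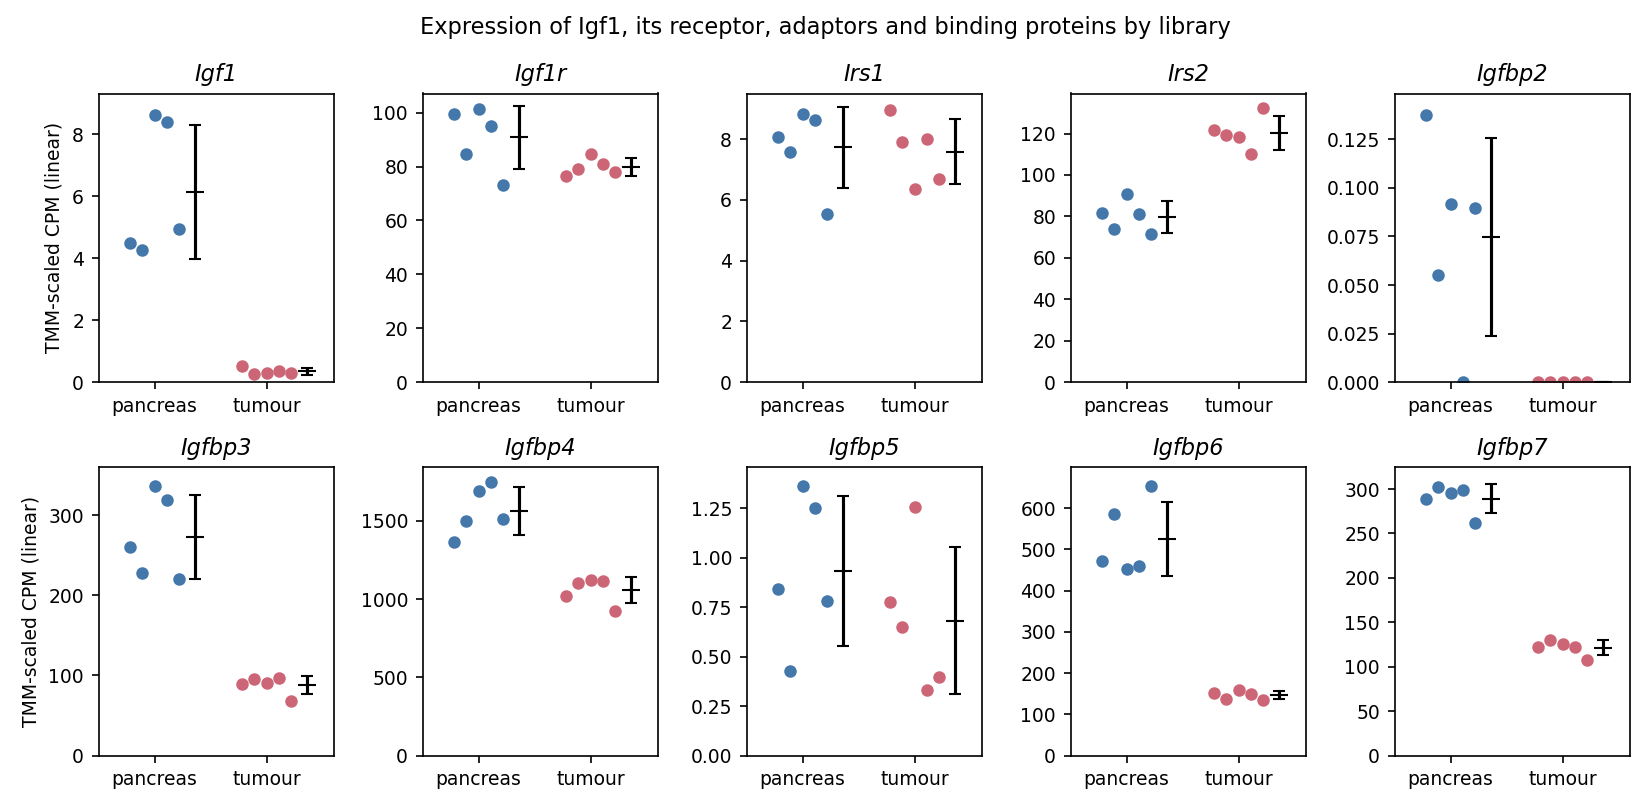
Expression of the 10 IGF genes in each library, as TMM-scaled CPM on linear axes that start at 0 and differ between genes. Each dot is 1 library, in the order of replicates 1 to 5, and the black bar is the mean with its SD. For Igf1, Igfbp3, Igfbp4, Igfbp6 and Igfbp7 every tumour library lies below every pancreas library, and for Irs2 every tumour library lies above.

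The ligand gene Igf1 (ENSMUSG00000020053.18, chromosome 10, 87858265 to 87937042, plus strand, mm10) was low in pancreas and close to the floor in tumour. In pancreas replicates 1 to 5 it was at 4.50, 4.27, 8.63, 8.38 and 4.96 CPM. In tumour replicates 1 to 5 it was at 0.525, 0.272, 0.285, 0.359 and 0.297 CPM. The groups were far apart, and within pancreas replicates 3 and 4 were the high pair. Behind these levels stood 262 to 753 estimated counts in a pancreas library and 18 to 46 in a tumour library. As 1 fragment may have added several counts, the number of fragments may have been smaller still. Igf1 was 17.5-fold lower in tumour (log2 fold change -4.13 ± 0.28, edgeR adjusted p = 3e-08), and 0.621% of tested genes had a fold change as low or lower. Without pancreas replicates 3 and 4 the log2 fold change was -3.71 ± 0.24 (edgeR adjusted p = 3.3e-08). In such bulk samples fewer Igf1-expressing cells and less Igf1 RNA per cell cannot be told apart.

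Markers of cell types that are known to make IGF1 differed in how they moved. Of 8 fibroblast markers 6 were lower and 1 higher in tumour, and their sum was 518 to 617 CPM in pancreas and 94.2 to 115 in tumour. Thy1, a surface protein gene that neurons and T cells also express, made up 57.1% of it and fell from 391 ± 25.2 to 3.99 ± 0.723 CPM. The collagen gene Col3a1 fell from 162 ± 30.6 to 42.8 ± 7.23 CPM, while Pdgfra, which encodes a receptor for platelet-derived growth factor, rose from 12.4 ± 1.80 to 45.1 ± 3.35 CPM (log2 fold change 1.87, edgeR adjusted p = 2e-09). Dcn and Lum, which encode matrix proteoglycans of fibroblasts, were at 0 in all tumour libraries and had at most 87 and 4 counts in a pancreas library. The macrophage markers Adgre1, C1qa and C1qb were at 0 in all 10 libraries, while the macrophage list summed to 4.33 to 14.9 CPM in pancreas and 15.1 to 18.7 in tumour. Of its 8 genes only 2 could be tested. Cd68 rose from 3.26 ± 1.74 to 9.30 ± 1.89 CPM, and Csf1r, which made up 50.2% of the sum, was not called. The part of fibroblast content in the fall of Igf1 and the binding protein genes was not tested.

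Other ligand genes were scarce. Igf2, the second IGF, reached 133 counts in 1 pancreas library and 37 in 1 tumour library, from 0 upward in both groups (log2 fold change -1.23 ± 1.32, edgeR adjusted p = 0.43). The highest value, 1.96 CPM, was that of pancreas replicate 4, without which the log2 fold change was 0.66 (edgeR adjusted p = 0.66). The insulin genes Ins1 and Ins2 were listed at 0 in all libraries.

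Among receptors, Igf1r was not called, while Insr and Igf2r rose. Igf1r (ENSMUSG00000005533.10, chromosome 7, 67952827 to 68233668, plus strand) was at 99.7, 84.7, 101, 95.1 and 73.3 CPM in pancreas replicates 1 to 5. In tumour replicates 1 to 5 it was at 76.3, 79.2, 84.8, 80.9 and 77.8 CPM. The groups overlapped, since pancreas replicate 5 lay below all tumour libraries. The fold change missed the threshold narrowly (log2 fold change -0.19 ± 0.08, edgeR adjusted p = 0.05001). It passed without pancreas replicate 5 (log2 fold change -0.26, edgeR adjusted p = 0.00105) and without pancreas replicate 2 (-0.21, 0.0412). Without pancreas replicates 3 and 4 it was -0.11 ± 0.08 (edgeR adjusted p = 0.236).

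The insulin receptor gene Insr, whose product also binds IGFs in hybrid receptors with IGF1R, rose from 109 ± 12.03 to 140.3 ± 6.08 CPM (log2 fold change 0.36 ± 0.07, edgeR adjusted p = 3.4e-04). Igf2r encodes the mannose 6-phosphate receptor, which takes up IGF2 for breakdown. Its level went up from 98.9 ± 7.79 to 207 ± 6.77 CPM (log2 fold change 1.07 ± 0.05, edgeR adjusted p = 2.2e-09), and no library of 1 group reached the range of the other. Per kb of exon, Igf1r was at 0.526 to 0.847 of Insr in the pancreas libraries and at 0.442 to 0.520 in the tumour libraries. Against Igf2r the ratio was 0.405 to 0.605 in pancreas and 0.202 to 0.223 in tumour, with no overlap. The orphan receptor gene Insrr had at most 11 counts in a library and could not be tested.

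The adaptor genes Irs1 and Irs2 differed from each other. Irs2 (ENSMUSG00000038894.7, chromosome 8, 10984681 to 11008458, minus strand) was at 81.5, 74.0, 90.8, 81.3 and 71.4 CPM in pancreas replicates 1 to 5. In tumour replicates 1 to 5 it was at 122, 119, 118, 110.0 and 132 CPM. Every tumour library lay above every pancreas library, a rise of 1.51-fold (log2 fold change 0.59 ± 0.07, edgeR adjusted p = 3.7e-06). Irs1 (ENSMUSG00000055980.2, chromosome 1, 82233101 to 82291416, minus strand) was at 8.09, 7.59, 8.82, 8.62 and 5.52 CPM in pancreas and at 8.97, 7.90, 6.37, 8.02 and 6.71 CPM in tumour. Its groups overlapped over almost their whole range (log2 fold change -0.02 ± 0.14, edgeR adjusted p = 0.888), and its sign turned with several settings given in the closing section. Per kb of exon Irs2 was 13.6 to 18.7 times as high as Irs1 in pancreas and 19.6 to 28.5 times as high in tumour, so those ranges did not overlap. Exons of Irs1 share 2822 of their bases with Gm9747 on the other strand, which was listed at 0 in all libraries. Without strand, reads there may have been left uncounted for Irs1, which would raise the ratio in both tissues. Exons of Irs2 share 162 bases with 9530052E02Rik on the other strand, which was at no more than 0.282 CPM in any library.

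The 6 IGF binding protein genes spanned a wide range of CPM levels, with Igfbp4 at the top and Igfbp2 and Igfbp5 near the floor. Their sum came to 2388 to 2826 CPM in pancreas and 1236 to 1498 CPM in tumour. Igfbp4 alone made up 57.0% to 61.9% of that sum in pancreas and 73.7% to 75.1% in tumour. The sum and the share both separated the groups without overlap.

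Promoters of the 4 IGF genes that fell at least 2-fold are shown because these genes had the largest falls of the 9 tested. They shared the direction between tissues but not the order of the libraries within pancreas. Each window runs from 250 bases before to 50 bases after the RefSeq start (GRCm38.p6, the assembly of mm10), 5′ to 3′ on the strand of the gene. The Igf1 window is chr10:87860861-87861160 on the plus strand, Igfbp3 chr11:7213874-7214173 on the minus strand, Igfbp6 chr15:102143936-102144235 on the plus strand and Igfbp7 chr5:77407996-77408295 on the minus strand. Capitals mark every match, on either strand, to 6 motifs. These were the TATA box as TATAAA, the FOXO motif as TGTTTAC, the SP1 motif as GGGCGG, the cyclic AMP response element as TGACGTCA, the AP-1 motif as TGACTCA and the E-box as CACGTG.
Igf1: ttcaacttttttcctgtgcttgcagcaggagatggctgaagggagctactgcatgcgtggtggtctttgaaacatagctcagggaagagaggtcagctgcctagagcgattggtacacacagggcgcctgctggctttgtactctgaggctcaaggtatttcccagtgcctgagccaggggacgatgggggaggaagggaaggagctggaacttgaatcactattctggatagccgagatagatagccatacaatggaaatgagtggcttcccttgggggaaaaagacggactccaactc
Igfbp3: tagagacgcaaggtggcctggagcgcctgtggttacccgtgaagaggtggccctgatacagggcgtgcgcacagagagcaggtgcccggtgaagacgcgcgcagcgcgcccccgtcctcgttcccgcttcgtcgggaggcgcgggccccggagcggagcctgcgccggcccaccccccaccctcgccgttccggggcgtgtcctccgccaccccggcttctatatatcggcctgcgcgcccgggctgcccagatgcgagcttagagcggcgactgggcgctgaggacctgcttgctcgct
Igfbp6: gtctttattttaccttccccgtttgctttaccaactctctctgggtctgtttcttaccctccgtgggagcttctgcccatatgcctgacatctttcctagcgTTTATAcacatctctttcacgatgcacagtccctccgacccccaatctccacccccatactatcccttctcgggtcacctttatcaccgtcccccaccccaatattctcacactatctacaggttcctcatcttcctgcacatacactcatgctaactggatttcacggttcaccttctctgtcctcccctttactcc
Igfbp7: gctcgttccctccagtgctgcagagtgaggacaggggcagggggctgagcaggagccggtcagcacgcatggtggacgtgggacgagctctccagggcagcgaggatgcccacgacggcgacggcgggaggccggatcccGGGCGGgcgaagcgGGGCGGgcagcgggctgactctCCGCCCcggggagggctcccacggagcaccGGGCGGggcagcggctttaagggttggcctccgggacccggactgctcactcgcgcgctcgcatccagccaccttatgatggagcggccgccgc
The windows differ widely in CG dinucleotides, the sites of DNA methylation. Igf1 had 6 and Igfbp6 8, close to the median of 7 over the 32851 windows of the RefSeq table, while Igfbp3 had 37 and Igfbp7 33, above 20, the upper quartile. Igfbp7 held 4 GGGCGG matches, a motif present in 35.7% of all windows, and Igfbp6 held 1 TATAAA match on the opposite strand, at 148 bases before the start, a motif present in 13.6%. Igf1 and Igfbp3 held no match to any of the 6. TGTTTAC was in 3.65% of all windows, TGACGTCA in 1.79%, TGACTCA in 5.20% and CACGTG in 7.15%. The nearest GENCODE transcript start lay 218 bases from the RefSeq start for Igf1, 176 for Igfbp6, 4 for Igfbp7 and 0 for Igfbp3; which start these cells use was not tested.

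Igfbp6 (ENSMUSG00000023046.6, chromosome 15, 102144362 to 102149511, plus strand) encodes a binding protein that prefers IGF2 to IGF1. It was at 473, 585, 453, 459 and 653 CPM in pancreas replicates 1 to 5 and at 152, 138, 158, 149.9 and 134 CPM in tumour replicates 1 to 5. The lowest pancreas library was well above the highest tumour library, and in pancreas replicates 2 and 5 were the high pair. The gene was 3.58-fold lower in tumour (log2 fold change -1.84 ± 0.10, edgeR adjusted p = 8.2e-09), and 3.98% of tested genes fell as far or further. Without pancreas replicates 3 and 4 the log2 fold change was -1.97 ± 0.09.

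Igfbp3 (ENSMUSG00000020427.11, chromosome 11, 7206086 to 7213923, minus strand) encodes the main IGF carrier of blood plasma. Its levels were 260.3, 228, 336, 319 and 221 CPM in pancreas replicates 1 to 5 and 89.3, 95.2, 90.3, 97.3 and 68.3 CPM in tumour replicates 1 to 5. The groups did not overlap, pancreas replicates 3 and 4 were the high pair, as for Igf1, and tumour replicate 5 was the lowest of all. The fall was 3.09-fold (log2 fold change -1.63 ± 0.14, edgeR adjusted p = 6.6e-07), and -1.43 ± 0.10 on the log2 scale without pancreas replicates 3 and 4. Per kb of exon, Igfbp3 was 120.2 to 183 times as high as Igf1 in pancreas and 538 to 1107 times in tumour. The tumour ratio rests on only 18 to 46 counts of Igf1 in a library.

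Igfbp7 (ENSMUSG00000036256.13, chromosome 5, 77349240 to 77408041, minus strand) encodes a distant relative that binds IGFs weakly and is known from vessel walls. It was at 288, 302, 295, 299 and 262 CPM in pancreas replicates 1 to 5 and at 122, 130.0, 126, 122 and 108 CPM in tumour replicates 1 to 5. Both groups were tight, with a wide gap between them. The fall was 2.38-fold (log2 fold change -1.25 ± 0.06, edgeR adjusted p = 7.9e-10), and -1.23 ± 0.06 without pancreas replicates 3 and 4. Of the 8 endothelial markers 7 could be tested, with 3 lower and none higher. The 8 summed to 344 to 396 CPM in pancreas and 203 to 211 in tumour, with 90.4% from Cdh5. Pecam1, Tek, Vwf and Esam were not called and were at no more than 2.44 CPM in any library. The endothelial marker Emcn was at 0 in all tumour libraries, and had at most 8 counts in a pancreas library. Pericyte and smooth muscle markers, with 4 of 8 lower and 3 higher, summed to 651 to 827 and 407 to 436 CPM. The part of these cells in the fall of Igfbp7 was not tested. Exons of Igfbp7 share 85 bases with Polr2b on the other strand, which was at 83.8 to 88.4 CPM in pancreas and 62.5 to 67.9 in tumour, and the library kit does not mark strand.

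Igfbp4 (ENSMUSG00000017493.12, chromosome 11, 99041244 to 99054392, plus strand) encodes a binding protein that holds IGF1 until the protease PAPP-A cuts it. It was at 1366, 1501, 1692, 1748 and 1509.6 CPM in pancreas replicates 1 to 5 and at 1020.4, 1099.8, 1122, 1113 and 925 CPM in tumour replicates 1 to 5. The groups did not overlap, but the difference was smaller than for the other binding protein genes that fell, at 1.48-fold (log2 fold change -0.57 ± 0.07, edgeR adjusted p = 1.3e-05). Without pancreas replicates 3 and 4, the highest pancreas libraries, it was -0.47 ± 0.06.

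The remaining binding protein genes were near the floor. Igfbp5 (chromosome 1, 72857932 to 72874884), whose product is abundant in muscle and bone, ranged from 0.427 to 1.36 CPM in pancreas and from 0.334 to 1.26 in tumour, with overlap over nearly the whole range (log2 fold change -0.45 ± 0.40, edgeR adjusted p = 0.34). Without pancreas replicates 3 and 4, its highest pancreas libraries, it was -0.00348 ± 0.45. With 1 library left out it ran from -0.79 without tumour replicate 3 (edgeR adjusted p = 0.0999) to -0.27 without either pancreas replicate 3 or tumour replicate 4, and it was not called in any of them. Igfbp2, next to Igfbp5 on chromosome 1 (72824503 to 72852474), had 8, 4, 8, 0 and 7 counts in pancreas replicates 1 to 5 and 0 in all tumour libraries. The table appears to add several counts for 1 fragment, so these stand for a handful of fragments, and no fold is given. Igfbp1, the acid labile subunit gene Igfals and Igfbpl1 had at most 8 counts in any library.

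**Figure D2:**
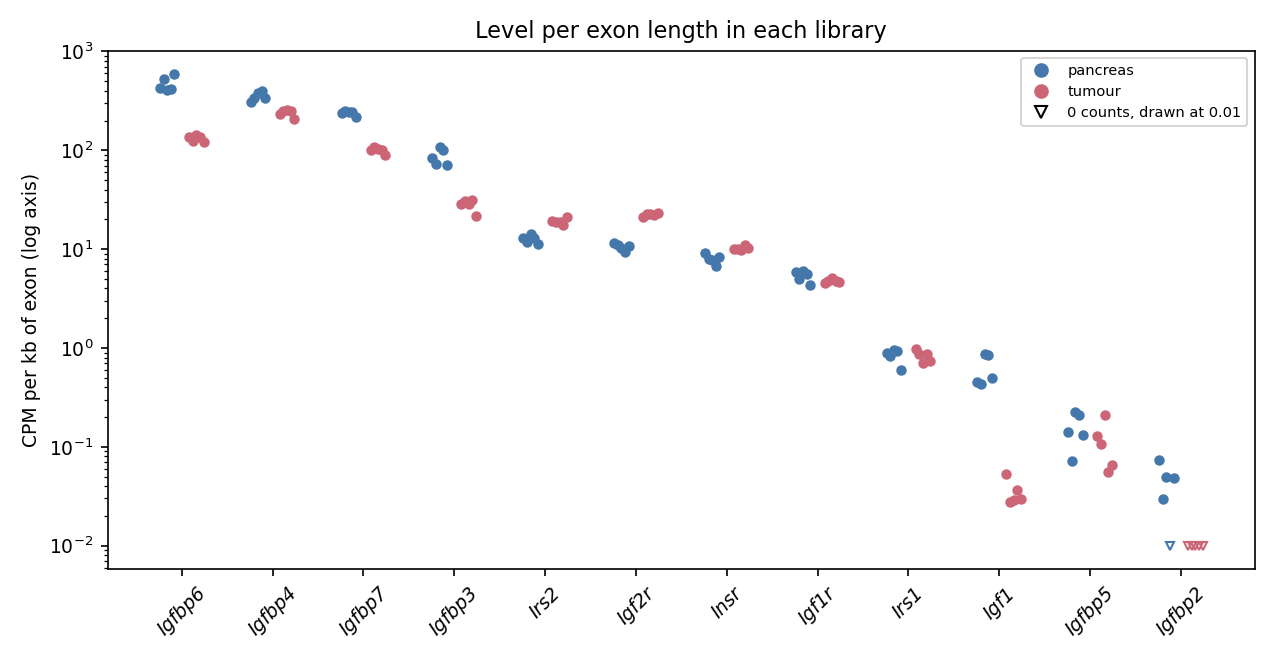
TMM-scaled CPM per kb of annotated exon for the 10 IGF genes, Insr and Igf2r, on a log axis, with 1 symbol per library. Genes are ordered by their pancreas mean, and libraries at 0 counts are drawn as open triangles at 0.01. Igfbp6, Igfbp4, Igfbp7 and Igfbp3 are the 4 highest in both tissues, and Igf1 lies below every receptor and adaptor gene in tumour.

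Set per kb of exon, the order of levels differed between the tissues at its top. In pancreas Igfbp6 led at 407 to 588 CPM per kb, above Igfbp4 at 309 to 396, Igfbp7 at 217 to 250.0 and Igfbp3 at 70.5 to 107. In tumour Igfbp4 led at 209.5 to 254 CPM per kb, above Igfbp6 at 121 to 142, Igfbp7 at 89.1 to 108 and Igfbp3 at 21.8 to 31.1. No neighbours among these 4 overlapped in either tissue. Below them in pancreas came Irs2 (11.3 to 14.4 CPM per kb), then Igf2r (9.36 to 11.5), whose range touched that of Irs2, then Insr (6.68 to 9.08) and Igf1r (4.36 to 6.03). In tumour Igf2r (21.1 to 23.0) lay above Irs2 (17.4 to 20.9), with Insr at 9.72 to 10.9 and Igf1r at 4.54 to 5.05. Irs1 was at 0.604 to 0.965 CPM per kb in pancreas and at 0.697 to 0.981 in tumour. Igf1 was at 0.431 to 0.871 in pancreas, overlapping Irs1, and at 0.0275 to 0.0530 in tumour, the range below that of Igfbp5 (0.0555 to 0.210). The annotated exons of Igf1 cover 9.90 kb over all its transcripts, which lowers its value per kb if these cells use shorter forms.

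**Figure D3:**
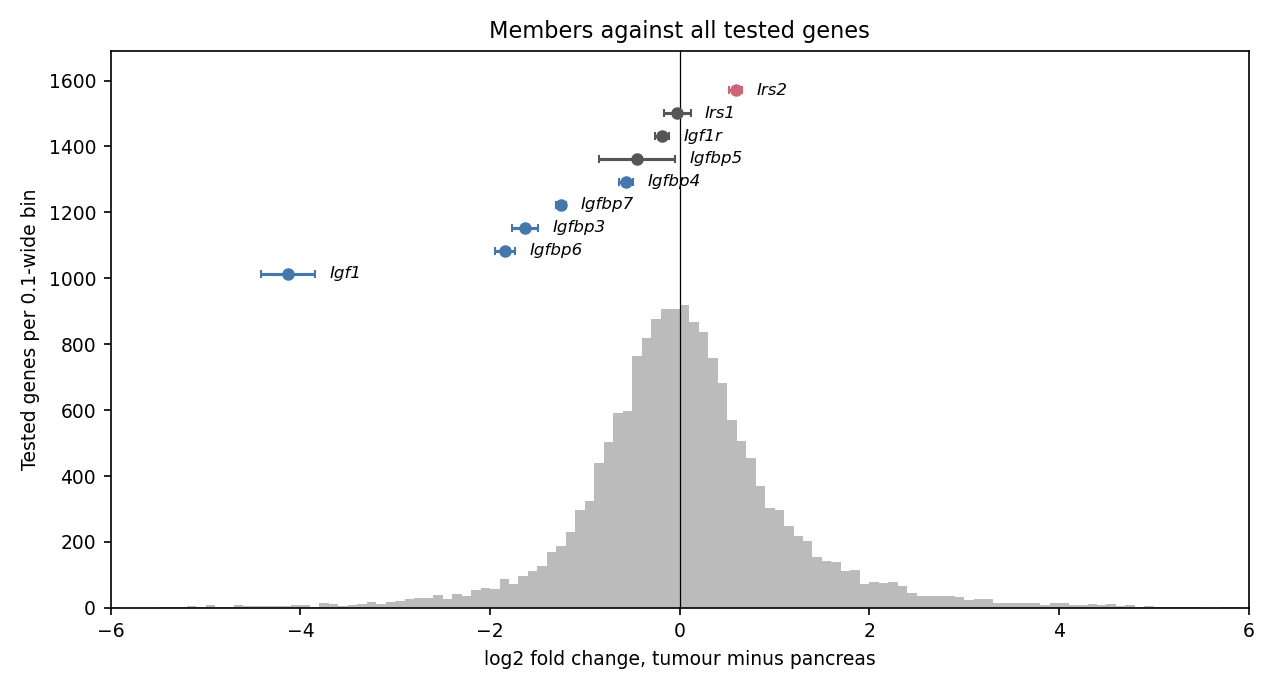
Log2 fold change of the 9 tested IGF genes (dots, with SE as horizontal bars) above a histogram of all 17548 tested genes in bins of 0.1. The height of a dot only separates the names. Blue dots were called lower, the red dot was called higher, and grey dots were not called. Igf1, at -4.13, lies far in the lower tail, and Irs2, at 0.59, lies within the bulk.

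Genes whose profile over the 10 libraries was most like that of an IGF gene were sought among 10415 genes averaging 5 CPM or more, by the root mean square difference of centred log2(CPM + 1). For Igf1 they were the tissue factor gene F3 (difference 0.135) and the lymphatic growth factor gene Vegfd (0.173). Both fell less on the fitted scale, by 2.32 and 2.68 on the log2 scale, since the added 1 CPM compresses the profile of a gene as low as Igf1. For Igfbp6 they were Dus3l, which encodes a tRNA-modifying enzyme (0.0823), and the mitochondrially encoded complex I gene mt-Nd6 (0.0948). For Irs2 they were the scaffold gene Magi1 (0.0416) and the inositol phosphatase gene Impa2 (0.0455).

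Of 81 other genes of the IGF and insulin pathway 74 could be tested, and 24 were higher and 27 lower in tumour, that is near the share of called genes in the whole table (median log2 fold change -0.01). Genes that act on the binding proteins outside the cell included the widest change. Stc1, which encodes stanniocalcin 1, an inhibitor of PAPP-A, was at 2.58, 2.14, 1.54, 1.12 and 1.99 CPM in pancreas replicates 1 to 5. In tumour replicates 1 to 5 it was at 18.1, 16.8, 15.99, 13.8 and 11.1 CPM. Every tumour library was several times above every pancreas library (log2 fold change 3.02 ± 0.21, edgeR adjusted p = 3.4e-08). Its relative Stc2, also an inhibitor of PAPP-A, moved the other way, from 4.92 ± 0.346 to 2.89 ± 0.329 CPM (log2 fold change -0.77 ± 0.13, edgeR adjusted p = 1.1e-04). The gene of the protease itself, Pappa, was near the floor at 0.520 ± 0.182 and 0.559 ± 0.210 CPM and was not called (edgeR adjusted p = 0.81).

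Pappa2, which encodes a related protease that cuts IGFBP3 and IGFBP5, fell from 0.969 ± 0.528 to 0.297 ± 0.145 CPM (log2 fold change -1.69 ± 0.49, edgeR adjusted p = 0.0077). Its groups overlapped, because pancreas replicate 3 was at 0.264 CPM. Without pancreas replicates 3 and 4 its log2 fold change was -2.16 (edgeR adjusted p = 3.2e-04). The metalloprotease gene Adam12 fell from 100.5 ± 21.5 to 67.3 ± 5.39 CPM (log2 fold change -0.58 ± 0.13, edgeR adjusted p = 0.0015). The serine protease gene Htra1 was not called, at 496 ± 4.57 and 490 ± 17.1 CPM (log2 fold change -0.02 ± 0.04, edgeR adjusted p = 0.71).

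**Figure D4:**
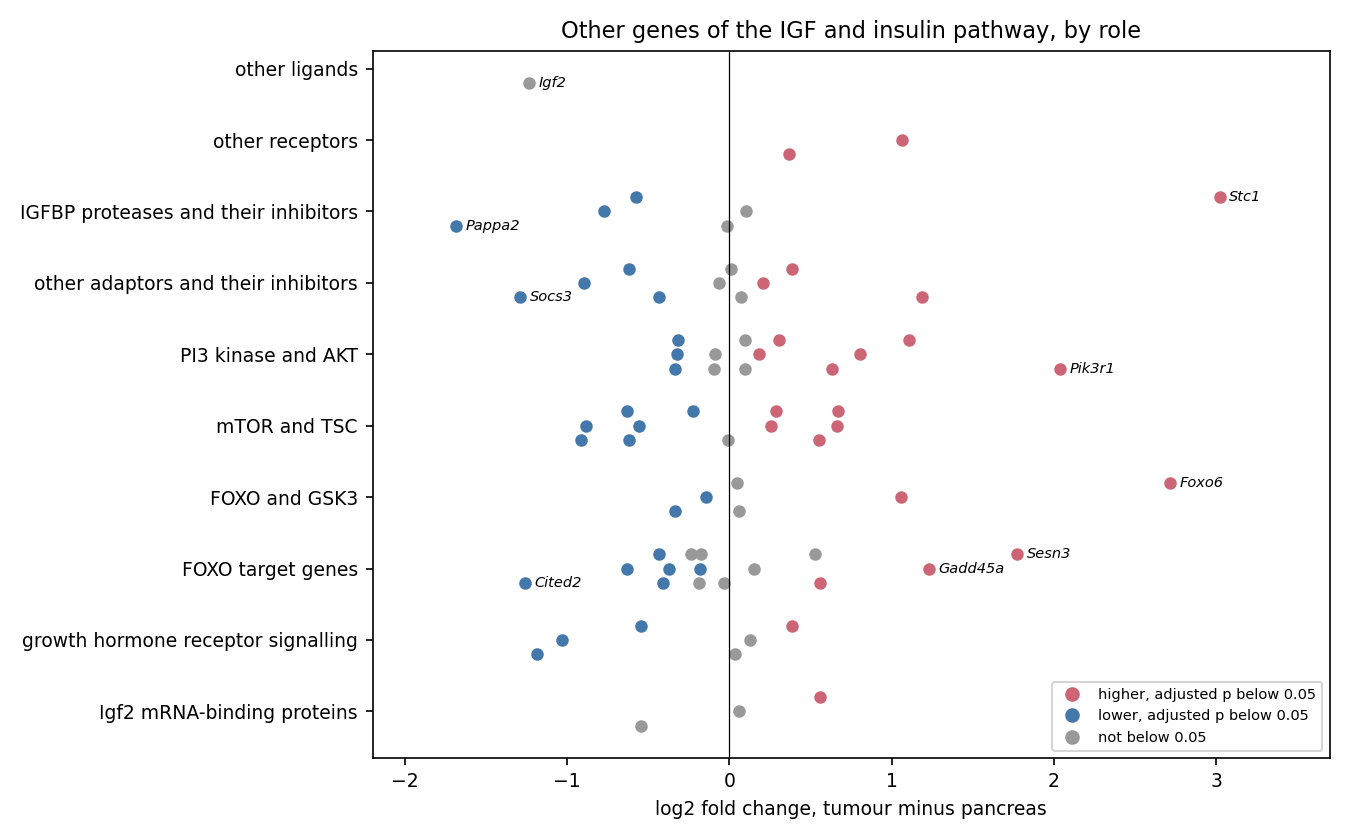
Log2 fold change of the 74 tested other genes of the pathway, 1 dot per gene, in rows by role (no gene of the other binding partners could be tested). Red dots were called higher, blue dots lower and grey dots were not called, and the genes furthest from 0 are named. Stc1, Foxo6 and Pik3r1 lie furthest to the right, and Pappa2 furthest to the left.

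Downstream of the receptor, calls went both ways in every larger group. Adaptors and their inhibitors had 3 higher and 4 lower of 10 tested. Grb14, an inhibitor of the insulin receptor, rose from 2.42 ± 1.14 to 5.50 ± 0.589 CPM, and Sos1, which activates Ras, from 48.0 ± 4.23 to 62.6 ± 2.65. Socs3, a feedback inhibitor of cytokine and insulin signalling, fell from 51.9 ± 3.80 to 21.2 ± 1.34 CPM (log2 fold change -1.29 ± 0.07, edgeR adjusted p = 2.1e-09), and its relative Socs1 from 6.02 ± 0.812 to 3.24 ± 0.496.

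The PI3 kinase and AKT list had 6 higher and 3 lower of 13. Pik3r1, which encodes the regulatory subunit that docks on IRS proteins, was at 29.5 to 34.8 CPM in pancreas and at 127 to 135 in tumour (log2 fold change 2.04 ± 0.05, edgeR adjusted p = 1.7e-11). The kinase gene Akt1 fell from 419 ± 21.9 to 333 ± 11.5 and Inppl1, a lipid phosphatase that opposes PI3 kinase, from 163 ± 12.2 to 130.5 ± 5.15.

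The mTOR and TSC list had 5 higher and 6 lower of 12. Rictor, a subunit of mTOR complex 2, rose from 59.4 ± 9.25 to 94.5 ± 4.76 CPM and the translation repressor gene Eif4ebp1 from 179.9 ± 15.1 to 285 ± 12.8. Akt1s1, an inhibitor subunit of mTOR complex 1, fell from 136 ± 27.3 to 71.8 ± 4.20 CPM and the S6 kinase gene Rps6kb2 from 20.4 ± 1.65 to 11.1 ± 1.16.

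Among FOXO and GSK3 genes 2 were higher and 2 lower of 6. Foxo6 rose from 1.12 ± 0.263 to 7.36 ± 1.26 CPM and Gsk3b from 110.0 ± 8.64 to 229 ± 8.26, while Foxo4 fell from 40.6 ± 1.98 to 32.1 ± 1.86. Gsk3a fell slightly, from 103 ± 9.53 to 93.5 ± 1.34 CPM (log2 fold change -0.15 ± 0.06, edgeR adjusted p = 0.039), a call that ended in 12 of 19 alternatives, with adjusted p up to 0.524. Known FOXO target genes were 3 higher and 6 lower of 15, without a common direction. Sesn3 rose from 11.1 ± 2.28 to 38.0 ± 1.38 CPM and the stress gene Gadd45a from 65.0 ± 9.81 to 152 ± 8.28. Cited2 fell from 330 ± 80.4 to 138 ± 11.9 CPM and the superoxide dismutase gene Sod2 from 113 ± 11.7 to 73.0 ± 4.62. For Cited2 the log2 fold change was -1.26 ± 0.15, and -0.998 ± 0.080 with pancreas replicates 3 and 4 left out. Irs2 and Insr, also known as FOXO targets, rose, as given above.

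Growth hormone, which acts through its receptor and STAT5, is the main inducer of Igf1 in liver. Of its 6 listed signalling genes 1 was higher and 3 lower. The receptor gene Ghr was at 73.7, 71.4, 109, 100.2 and 64.4 CPM in pancreas replicates 1 to 5 and at 42.8, 38.9, 39.0, 42.3 and 41.9 CPM in tumour. The tumour libraries lay below all pancreas libraries, and pancreas replicates 3 and 4 were again the high pair (log2 fold change -1.03 ± 0.13, edgeR adjusted p = 2.1e-05). Leaving that pair out gave a smaller fall for Ghr (log2 fold change -0.78 ± 0.06, edgeR adjusted p = 1.4e-07). The STAT5 target gene Cish fell from 41.4 ± 3.01 to 18.2 ± 1.08 CPM (log2 fold change -1.19 ± 0.07, edgeR adjusted p = 4.7e-09), while Stat5a rose from 14.8 ± 0.955 to 19.4 ± 1.56. Socs2, of the same list, was not called, at 84.3 ± 7.61 and 86.4 ± 3.96 CPM (edgeR adjusted p = 0.63). Stat5b was not called either (edgeR adjusted p = 0.38). The part of growth hormone signalling in the fall of Igf1 was not tested. Of the genes of the 3 proteins that bind Igf2 mRNA, Igf2bp2 alone was called, rising from 175 ± 5.58 to 259 ± 12.6 CPM (log2 fold change 0.56 ± 0.04, edgeR adjusted p = 9.1e-08).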

How the data were processed

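RNA was sequenced from 10 sorted cell samples, 5 of pancreas and 5 of tumour, grouped by sample title. The deposited values are estimated counts per gene, 1 column per sample, and the submitters' processing notes name HTSeq, HISAT, HISAT2 and the mm10 build. No source used here gives versions, strand setting or annotation release. All values were whole. A count of 4 was 1.69 to 2.07 times as common as the mean of counts 3 and 5, so 1 fragment may add several counts, and no counting interval is given. Per the labels' protocols a NEBNext Ultra kit was used, which does not mark strand.

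Genes were kept by filterByExpr (minimum count 10, minimum total 15), which left 17548 of 55401. Libraries were scaled by TMM (factors 0.960 to 0.972 in pancreas, 1.03 to 1.042 in tumour), and the groups were compared in edgeR 4.0.16 (robust quasi-likelihood F test), adjusted over all tested genes. The SE is the size of the log2 fold change divided by the square root of F. R 4.3.3, limma 3.58.1, DESeq2 1.42.0, Python 3.11.15 and matplotlib 3.10.9 were used. Coordinates and exon lengths come from GENCODE mouse release M21, promoters from RefSeq (GRCm38.p6). Tested on simulated counts for this comparison (17157 genes tested), the fit called 33 of 63 genes changed 1.5-fold, 44 of 63 changed 2-fold, 55 of 64 changed 4-fold and 11 of 16967 unchanged genes. A far smaller share of genes was changed there than the 65.8% called in the data, so these rates need not carry over. No within-group pair of libraries agreed within counting noise (chi-square per degree of freedom at least 3.01, counts divided by an assumed 4), so none was treated as 1 library deposited in 2 columns. This does not tell separate animals from technical libraries.

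The IGF genes, pathway lists, markers and alternatives were chosen with earlier results of these data known. Named were the 10 IGF genes, every gene of the ligand, receptor, binding partner and protease lists, and of each other list up to 2 called genes with the largest change in each direction at a mean of at least 1 CPM. Socs2 and Stat5b, of the growth hormone list, were named in addition because they were not called. Some genes that this rule or the marker lists hold are not reported here. Ductal epithelial markers, checked with the other cell types, summed to 91.5 to 119.8 CPM in pancreas and 40.6 to 44.5 in tumour. Of 5 tested, 4 were lower and Sox9 was not called. Cftr alone fell from 54.5 ± 9.79 to 1.51 ± 0.255 CPM. Adipocyte markers summed to 20.9 to 24.3 CPM in pancreas and 38.5 to 44.1 in tumour, with 83.2% from Pparg. Pparg and Fabp4, the 2 tested, were higher in tumour. Adipoq, Plin1 and Cidec were at 0 in all tumour libraries, and Lep in all libraries. Acinar, endocrine and lymphocyte markers summed to no more than 2.77 CPM in any library.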

Additional observations from a re-analysis of the deposited data

Results flagged for a closer look

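In 4 of 84 groups of 5 libraries examined (42 named genes, each in both tissues) 1 library lay apart from the other 4 by Dixon's criterion, and chance flags about 5% of groups. Igfbp3 in tumour replicate 5 was at 68.3 CPM, against 89.3 to 97.3 in the other tumour libraries. Igf2 in pancreas replicate 4 was at 1.96 CPM, against 0 to 0.257. Gsk3b in tumour replicate 5 was at 244 CPM, against 224 to 227, and Cited2 in that library was at 117 CPM, against 139 to 147.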

How the results depend on the processing

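Of 19 alternatives tried, all kept the direction and the call of Igf1 (log2 fold change -4.33 to -3.71), Igfbp3 (-1.70 to -1.43), Igfbp4 (-0.61 to -0.46), Igfbp6 (-1.97 to -1.74), Igfbp7 (-1.29 to -1.15) and Irs2 (0.55 to 0.69), where they could test them. Igf1r passed without a low-count filter (-0.19, edgeR adjusted p = 0.0486), with counts divided by 4 (-0.18, 0.0474) and with the replicate block (-0.18, 0.0440). It was not called in 14 of 19 alternatives, and its fall was smallest with library size alone (-0.08, edgeR adjusted p = 0.362). With 1 library left out it was -0.26 to -0.15. Irs1, not called in any alternative, turned to 0.0781 with library size alone and to 0.10 without pancreas replicates 3 and 4, and ran from -0.13 to 0.0347 with 1 library left out. Leaving out pancreas replicate 3 gave 0.03, pancreas replicate 4 gave 0.01, tumour replicate 3 gave 0.0347 and tumour replicate 5 gave 0.02. Igfbp2 was called lower with no filter (edgeR adjusted p = 0.0191), from 27 counts in all. Igf2 turned to 1.21 without pancreas replicates 3 and 4, and to 0.66 without pancreas replicate 4, with a lowest value of -1.68 when 1 library was left out. Pappa turned to -0.04 when pancreas replicate 1 was left out and to -0.11 when tumour replicate 1 was, and its highest value with 1 library left out was 0.277. Htra1 turned to 0.0858 with library size alone and 0.0064 without tumour replicate 5, against a lowest value of -0.0274 with 1 library left out. The cause was not tested. Under library size alone the median over all genes shifted by 0.10, and 6635 genes were called higher and 4986 lower, against 5689 and 5853. The call of Gsk3a ended in 12 of 19 alternatives. Replicate numbers did not pair the samples: deviations of same-numbered libraries correlated at -0.0358 to 0.0577, and for 1 of 5 numbers it was the best match. The replicate block gave 1 IGF gene higher and 6 lower. Depth limits Igf1 in tumour, Igf2, Igfbp2, Igfbp5, Pappa and Pappa2.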
